A study of Homo sapiens with 6 samples.

Results

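The PDZ and LIM domain (PDLIM) proteins PDLIM1, PDLIM2, PDLIM3, PDLIM4, PDLIM5 and PDLIM7, together with LIMA1 and LMO7, were followed in quiescent human epithelial cells treated with combretastatin A4, an agent that takes microtubules apart. These 8 genes are 8 of the 38900 Ensembl genes of the deposited table, each with 1 row. They were chosen by family and by symbol, and the family was picked on the CA4 to DMSO difference itself, because PDLIM5 and LIMA1 were strongly higher in CA4. For this reason the differences of the 8 genes between the groups are given as a description, with no p-value, and support nothing.

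RNA came from hTERT RPE1, a human retinal pigment epithelial line immortalised with telomerase, and was sequenced in 6 libraries after selection for polyA tails. All cells were held at full confluency for 5 days to make them quiescent and then received fresh medium for 6 hours. For 3 libraries the medium held 100 nM combretastatin A4 (CA4), a small molecule that binds tubulin and depolymerizes microtubules, and for the other 3 it held 0.1% DMSO, the solvent. The labels number the libraries 1 to 3 in each group and do not say whether they came from separate cultures, so p-values measure the spread between these libraries, which may be technical.

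PDLIM proteins carry a PDZ domain at the N terminus, through which they bind alpha-actinin, and LIM domains, zinc-binding modules, at the C terminus. They sit on actin stress fibres, focal adhesions and, in muscle, the Z-disc, and hold kinases and other partners there. PDLIM1, PDLIM2, PDLIM3 and PDLIM4 form the ALP subfamily, with a single LIM domain, while PDLIM5 and PDLIM7 belong to the Enigma subfamily, which has several. LIMA1, also called EPLIN, binds and bundles actin filaments, slows their branching and links alpha-catenin to actin at cell junctions. LMO7 has calponin homology, PDZ and LIM domains and joins afadin at cell junctions and emerin at the nuclear envelope.

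The promoters are shown because 4 of the genes were higher together in CA4, and several of the genes have starts of their own that the gene-level counts cannot separate. RefSeq windows, running from 250 bases before to 50 after an annotated start on GRCh38.p14, were at hand for 7 of the 8 symbols in 12 windows, all except PDLIM2. The stretches printed here are read 5′ to 3′ from those windows and leave out every base that lies in a GENCODE 29 exon. Capitals mark the letters of any motif searched, on either strand.
PDLIM5, chr4:94451707-94451856, plus strand: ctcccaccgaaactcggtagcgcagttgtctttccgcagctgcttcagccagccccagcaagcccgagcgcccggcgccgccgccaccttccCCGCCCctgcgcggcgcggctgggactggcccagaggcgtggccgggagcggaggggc
LIMA1, internal start, chr12:50202174-50202323, minus strand: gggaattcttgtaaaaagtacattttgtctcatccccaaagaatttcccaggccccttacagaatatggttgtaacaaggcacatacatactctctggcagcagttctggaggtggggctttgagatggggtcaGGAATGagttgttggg
LMO7, outermost start, chr13:75620284-75620433, plus strand: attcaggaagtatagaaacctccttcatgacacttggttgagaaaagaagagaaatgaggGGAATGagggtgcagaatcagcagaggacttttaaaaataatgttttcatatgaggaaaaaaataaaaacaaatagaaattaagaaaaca
PDLIM1, chr10:95291025-95291174, minus strand: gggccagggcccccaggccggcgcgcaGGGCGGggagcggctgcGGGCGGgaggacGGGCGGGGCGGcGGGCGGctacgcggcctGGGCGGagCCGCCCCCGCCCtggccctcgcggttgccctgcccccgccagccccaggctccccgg
PDLIM7, chr5:177497607-177497756, minus strand: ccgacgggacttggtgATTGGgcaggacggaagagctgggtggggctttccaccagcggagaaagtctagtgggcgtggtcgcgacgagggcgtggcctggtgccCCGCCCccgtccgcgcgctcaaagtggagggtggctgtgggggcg

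In these stretches the capitals of PDLIM5 are a GC box (GGGCGG), those of LIMA1 and LMO7 a TEAD core (GGAATG), those of PDLIM1 8 GC boxes, some of which overlap, and those of PDLIM7 a GC box and a CCAAT box (CCAAT). The TEAD core begins 16 bases before the internal start of LIMA1 and 90 bases before the outermost start of LMO7. These were the 2 member windows of 12 that held it, against 14% of 35116 windows of the same length over all genes. PDLIM3, PDLIM4 and the other starts of LIMA1 and LMO7 are not printed. Outside exons, the stretch at the outermost start of LIMA1 held no motif searched, and neither did that of PDLIM3. At the other LMO7 starts the stretches held GC boxes, a CCAAT box or none. The GC box was in 7 of the 12 windows, at least 1 for each of the 7 genes, and in 45% of all windows. A CRE (TGACGTCA) was in the PDLIM3 window alone and in 1.85% of all windows, and it lies in an annotated exon. The CArG box, the site bound by serum response factor (SRF), was in 0 of the 12 windows and in 1.29% of all windows. For the AP-1 site (TGANTCA) and the TATA box (TATAAA) the count was also 0 of 12, against 7.71% and 11.5%. The CCAAT box was in 4 of the 12 windows and in 34.6% of all. A match is a run of letters and not a bound site, and nothing about a factor follows from a window without one.

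The libraries held 19524936 to 22538004 recovered reads, where a normalized count is a gene's reads divided by a factor of its library, and 1 read is worth close to 1 normalized count. Of 12 markers of retinal pigment epithelium 6 passed the filter on low values, 1 of them was past the threshold used for all genes, and DCT and TTR had no read in any library. The summed level of the 12 was 1147, 1854 and 1687 normalized counts in DMSO replicates 1 to 3 and 652, 1058 and 787 in CA4. Most of that sum was MITF, at 620 to 1085 in DMSO and 321.8 to 647.4 in CA4, and OTX2, at 423 to 630.1 and 226.2 to 254.7, while BEST1, PMEL and SERPINF1 overlapped between the groups. RPE65, the defining enzyme of the visual cycle, was low, at 21.25, 20.57 and 40.83 in DMSO and 15.46, 13.46 and 18.95 in CA4. Every CA4 library of RPE65 lay below every DMSO library. The simple epithelial keratins KRT8 and KRT18 were abundant in every library, while EPCAM was at 0 to 4.458 and CDH1 at 0.935 to 32.3. Of 7 mesenchymal markers VIM, CDH2, COL1A1, PDGFRB and THY1 were also well read, COL3A1 lay at 311 to 2361 and COL1A2 at 12.3 to 59.8. KRT18 and CDH2 stood higher in every CA4 library than in any DMSO library. Past the threshold were 1 of the 7 mesenchymal markers and 0 of the 4 epithelial ones. The summed level of 5 cycling markers was 9617, 4647 and 4329 in DMSO replicates 1 to 3 and 7966, 4491 and 2400 in CA4. It was highest in replicate 1 of each group. Transcripts of cycling genes were thus read under the label of quiescence, with no dividing culture to set them against. The summed level of 4 endothelial markers was 1084 to 1575 in DMSO and 1754, 1406 and 3414 in CA4, highest in CA4 replicate 3. Of the leukocyte markers CD3E was at 0 throughout and PTPRC at 2.81 to 10.6, while CD68 lay between 499.7 and 920.9 in every library. The part of these markers in the results was not tested, and the values of the 8 genes without CA4 replicate 3 are given with their ranges.

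PDLIM5, PDLIM3, LIMA1 and LMO7 stood higher in every CA4 library than in any DMSO library, by 1.4-fold to 2.35-fold as fitted on the scale log2(normalized count + 1). The mean of PDLIM7 was higher by 11.3%, and PDLIM1, PDLIM2 and PDLIM4 overlapped between the groups. All 8 genes passed the filter of a mean of at least 10 normalized counts, as did 13928 genes of the table. In limma's fit to those genes, a linear model that borrows information on the spread across genes, 4 of the 8 lay past the threshold, an adjusted p of 0.05, all of them higher in CA4. Over all tested genes 2.97% were past it and higher, 1.97% past it and lower, and 4.94% past it in either direction. In 5 of the 8 genes all 3 CA4 libraries lay above all 3 DMSO libraries, as they did in 14.3% of tested genes. When library totals were made equal, the split over all genes was 279 higher and 523 lower, against 413 and 275. Of the 4 genes LMO7 dropped out of the count in 5 of the 6 fits that leave out a library, all except the one without DMSO replicate 1. Nothing is read from these counts, since the family was picked on the same difference and a call on it is no test. The median log2 change (CA4 minus DMSO) was 0.32 over the 8 genes and -0.0082 over all tested genes.

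**Figure D1:**
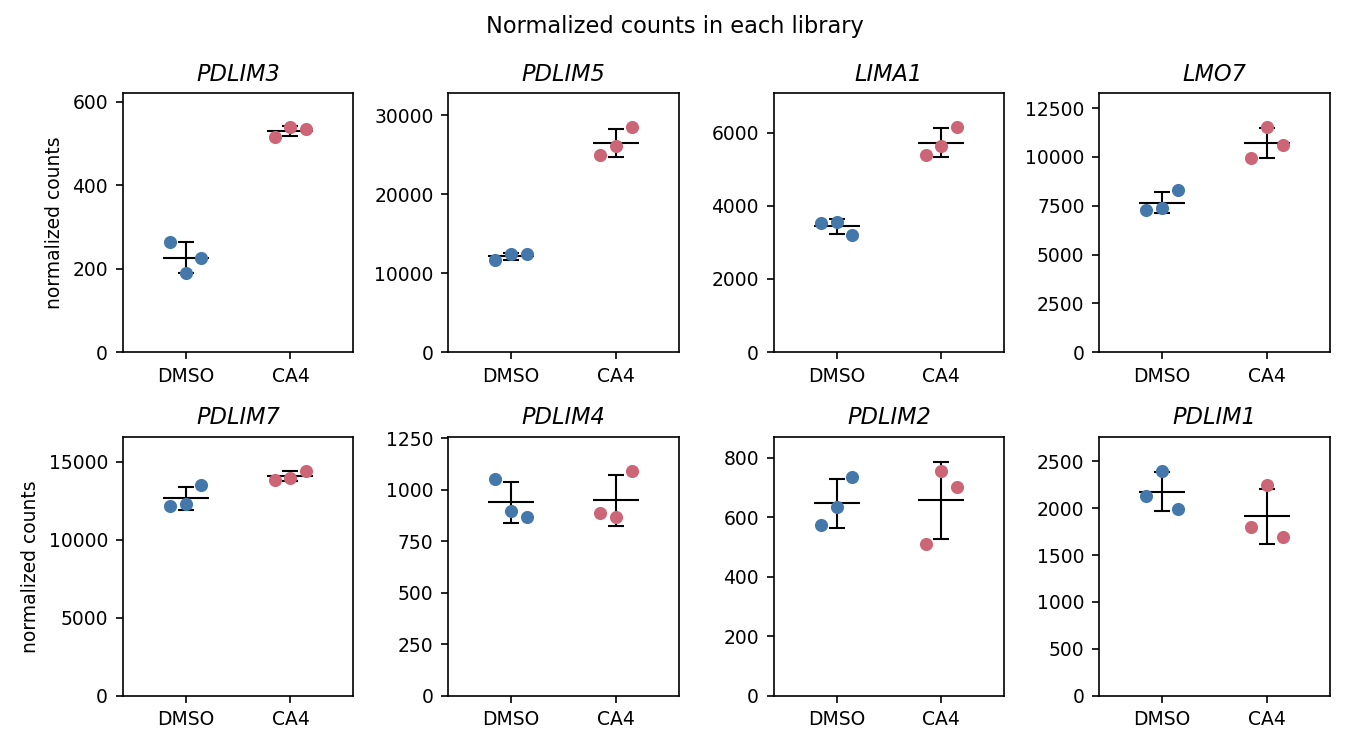
Normalized counts (vertical axis, from 0) of the 8 genes in the 3 DMSO and 3 CA4 libraries, 1 point for each library, with the mean (bar) and the SD (whiskers, n = 3). PDLIM3, PDLIM5, LIMA1, LMO7 and PDLIM7 have all 3 CA4 points above the DMSO points, and in PDLIM4, PDLIM2 and PDLIM1 the points overlap.

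Among the Enigma subfamily, PDLIM5 is a scaffold of stress fibres and Z-discs that binds protein kinase C and holds the transcription inhibitor ID2 in the cytoplasm. Its gene (ENSG00000163110) lies at chr4:94451857-94668227 on the plus strand in GENCODE 29 and has 23 annotated transcripts with 19 different starts. In DMSO replicates 1 to 3 PDLIM5 stood at 11635, 12378 and 12427 normalized counts, and in CA4 replicates 1 to 3 at 24923, 26104 and 28481. The groups lay far apart, and the lowest CA4 library was 2.01 times the highest DMSO library. The means were 12147 ± 444 and 26502 ± 1812 (SD, n = 3 each), and the fitted log2 change was 1.12 (SE, the standard error, 0.08). The spread within each group, with coefficients of variation of 3.66% and 6.84%, was small beside that difference. By fold change PDLIM5 ranked 298 from the top among the 13928 tested genes.

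PDLIM7, or Enigma, binds tropomyosin-rich actin filaments and receptor tyrosine kinases such as RET. Its gene (ENSG00000196923) lies at chr5:177483394-177497606 on the minus strand. PDLIM7 stood at 12150, 12269 and 13473 normalized counts in DMSO and at 13828, 13938 and 14409 in CA4. The groups did not overlap, but only just, since the lowest CA4 library was 1.03 times the highest DMSO library. Its log2 change was 0.16 (SE 0.07), and with library totals made equal it was 0.0545 (SE 0.07). That scaling moved the median over all tested genes by -0.10, and a difference as small as that of PDLIM7 has a size only relative to it.

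The 2 Enigma genes can be set against each other within each library, where the factor of the library cancels. The ratio of PDLIM5 to PDLIM7 normalized counts was 0.958, 1.01 and 0.922 in DMSO replicates 1 to 3 and 1.8, 1.87 and 1.98 in CA4. The counts of the 2 genes were thus near equal in each DMSO library, and the mean ratio was 1.96 times as high in CA4, at 0.963 ± 0.0435 and 1.88 ± 0.0877 (SD, n = 3 each).

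In the ALP subfamily, PDLIM3, the founding ALP protein, binds alpha-actinin at the Z-disc of skeletal and heart muscle. Its gene (ENSG00000154553) lies at chr4:185500660-185535612 on the minus strand. PDLIM3 had the lowest mean of the 8 genes in both groups, at 263.7, 189.8 and 225 normalized counts in DMSO and 515.1, 538.6 and 533.9 in CA4. The 3 CA4 libraries were close together and all at least 1.95 times the highest DMSO library. From means of 226 ± 36.9 and 529 ± 12.4 (SD, n = 3 each), its log2 change was 1.24 (SE 0.14), the largest of the 8 genes as fitted, though its distance to PDLIM5 was within the standard error and the order turned without DMSO replicate 2, at 1.12 against 1.14. The DMSO coefficient of variation of 16.3% was wider than the counting error of 7.02% at its lowest value of 203 reads. The muscle markers DES, MYOD1 and MYOG summed to 0.967 to 16.4 in the same libraries, with MYOG at 0 in each.

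PDLIM4, or RIL, binds alpha-actinin and the kinase SRC. Its gene (ENSG00000131435) lies at chr5:132257671-132273454 on the plus strand. PDLIM4 stood at 1055, 896.6 and 867.9 normalized counts in DMSO and 888.2, 866.2 and 1093 in CA4. The groups overlapped fully, with a log2 change of 0.01 (SE 0.13). Leaving out CA4 replicate 3 gave -0.09, and scaling to the same total gave -0.09 as well, so no direction is stated.

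PDLIM1, also known as CLP36 or elfin, binds alpha-actinin on stress fibres. Its gene (ENSG00000107438) lies at chr10:95237572-95291024 on the minus strand. PDLIM1 stood at 2135, 2400 and 1991 normalized counts in DMSO and 1801, 2245 and 1693 in CA4. CA4 replicate 2 lay within the DMSO range and the other two CA4 libraries below it. The log2 change was -0.19 (SE 0.13) and kept its sign in all 18 alternatives, from -0.31 to -0.11.

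PDLIM2, or mystique, also acts in the nucleus, where it promotes the breakdown of the NF-kB subunit RELA. Its gene (ENSG00000120913) lies on chromosome 8 at 22578279 to 22598025, plus strand, and 3.75% of its exon bases also belong to ENSG00000248235, which had at most 14.2 normalized counts in any library. PDLIM2 stood at 572.7, 632.9 and 735.9 normalized counts in DMSO and 510.3, 756.2 and 702.2 in CA4. The lowest and the highest of the 6 values were both CA4 libraries. Its log2 change was 0.01 (SE 0.17), and it ran from -0.10 without CA4 replicate 2 to 0.18 without CA4 replicate 1.

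Within each library, the ratio of PDLIM3 to PDLIM4 was 0.25, 0.212 and 0.259 in DMSO and 0.58, 0.622 and 0.488 in CA4. Every CA4 ratio lay above every DMSO ratio, and the mean ratio was 2.34 times as high. A factor applied to a whole library cancels in this ratio.

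LIMA1 (ENSG00000050405) lies at chr12:50175788-50283546 on the minus strand, with 16 annotated transcripts that all start at different bases. LIMA1 stood at 3532, 3566 and 3206 normalized counts in DMSO and 5381, 5640 and 6144 in CA4. Each CA4 library was at least 1.51 times the highest DMSO library. The means were 3434 ± 199 and 5722 ± 388 (SD, n = 3 each), with a log2 change of 0.74 (SE 0.08). In the 2 groups the coefficients of variation were 5.79% and 6.77%.

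LMO7 (ENSG00000136153) lies at chr13:75620434-75859870 on the plus strand and has 27 annotated transcripts. It stood at 7289, 7402 and 8291 normalized counts in DMSO and 9967, 11524 and 10627 in CA4. The groups were parted by less than in LIMA1, with the lowest CA4 library 1.2 times the highest DMSO library. The means were 7660 ± 549 and 10706 ± 781 (SD, n = 3 each), a log2 change of 0.48 (SE 0.09). Of its exon bases 8.93% also lie in AL137782.1 on the same strand and 0.432% in LMO7-AS1 on the other, neither analysed here, and use of strand is not given in the sources used here.

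**Figure D2:**
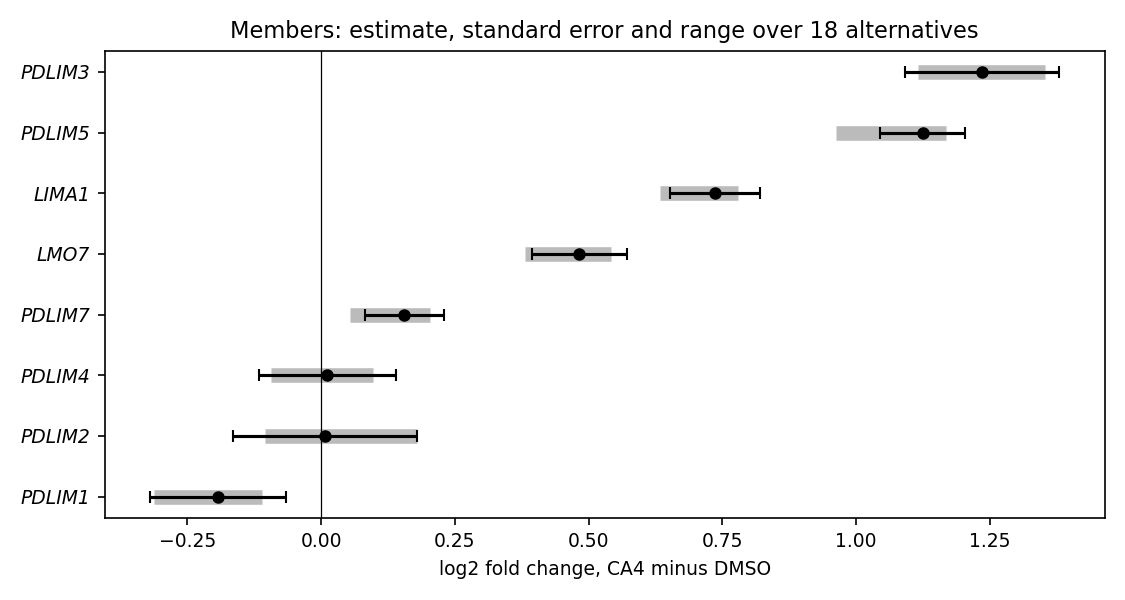
Log2 change of each gene, CA4 minus DMSO (horizontal axis), as the fitted value (point) with its standard error (whiskers) and the range over 18 alternative settings (grey bar). PDLIM3, PDLIM5, LIMA1 and LMO7 keep their whole range above 0, from 0.38 for the lowest LMO7 value upward, while the ranges of PDLIM4 and PDLIM2 cross 0.

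The ratio of PDLIM5 to LIMA1 was 3.29, 3.47 and 3.88 in DMSO and 4.63, 4.63 and 4.64 in CA4. PDLIM5 was thus higher relative to LIMA1 in every CA4 library. The ratio of LIMA1 to LMO7 was 0.485, 0.482 and 0.387 in DMSO and 0.54, 0.489 and 0.578 in CA4. These groups were barely parted, and DMSO replicate 3 was the lowest.

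Without CA4 replicate 3, the library with the most endothelial transcripts, the log2 changes were 1.23 for PDLIM3, 1.07 for PDLIM5, 0.68 for LIMA1, 0.49 for LMO7 and 0.14 for PDLIM7. All 5 stayed above 0. Over the 6 fits that each leave out a library, PDLIM3 ran from 1.12 to 1.35, PDLIM5 from 1.07 to 1.17, LIMA1 from 0.68 to 0.78 and LMO7 from 0.43 to 0.54.

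Levels can be compared between genes only per length, and here normalized counts were divided by the length of all annotated exons of a gene in kilobases. In DMSO the order was PDLIM7 at 2866 ± 166, PDLIM5 at 1095 ± 40, PDLIM1 at 972 ± 92.6, LIMA1 at 544 ± 31.5, LMO7 at 533 ± 38.2, PDLIM4 at 294 ± 31.5, PDLIM2 at 52.2 ± 6.66 and PDLIM3 at 24.8 ± 4.05 normalized counts per kilobase (SD, n = 3 each). PDLIM5 and PDLIM1 overlapped between libraries in DMSO, as did LIMA1 and LMO7, while every other neighbour in the order was parted in all libraries. In CA4, PDLIM5 at 2390 ± 163 lay well clear of the next gene, LIMA1 at 906 ± 61.4, and PDLIM3 at 58 ± 1.36 overlapped PDLIM2 at 53 ± 10.4 (SD, n = 3 each). PDLIM1 at 854 ± 131 overlapped both LIMA1 above it and LMO7 below it at 745 ± 54.4 (SD, n = 3 each). PDLIM7 was first in both groups and PDLIM5 second. With the length of the longest annotated transcript in place of all exons, LMO7 and LIMA1 changed places in DMSO and no other place changed. With that length, and with the longest protein-coding transcript of the basic set, PDLIM5 and PDLIM1 were parted in DMSO. With the latter, PDLIM3 lay above PDLIM2 in all CA4 libraries. These lengths count transcripts that the cells may not use.

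Per kilobase of all annotated exons, the 6 PDLIM genes summed to 5165, 5325 and 5423 in DMSO and to 6565, 6911 and 7052 in CA4. PDLIM5 made up 20.3%, 21% and 20.7% of it in DMSO and 34.2%, 34.1% and 36.4% in CA4. Its share was nearly constant within each group. The share of PDLIM7 was 54% ± 2.12 in DMSO and 46.6% ± 1.04 in CA4, although its own level was no lower, and that of PDLIM1 was 18.3% ± 1.87 and 12.5% ± 1.91 (SD, n = 3 each). PDLIM3 was the smallest share in each DMSO library, at 0.391% to 0.56%, and lay at 0.83% to 0.861% in CA4. Sums and shares depend on the length used. With the longest annotated transcript the mean sums were 10640 in DMSO and 13582 in CA4, and the mean shares of PDLIM5 18.4% and 31.4%. With the longest basic coding transcript the sums were 11563 and 14650, the PDLIM5 shares 16.9% and 29.1%, and the PDLIM3 shares 0.699% and 1.29%. Of all normalized counts the 8 genes took 0.19%, 0.194% and 0.198% in DMSO and 0.265%, 0.281% and 0.283% in CA4. In bulk RNA, more transcript per cell and more cells with the transcript cannot be told apart.

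**Figure D3:**
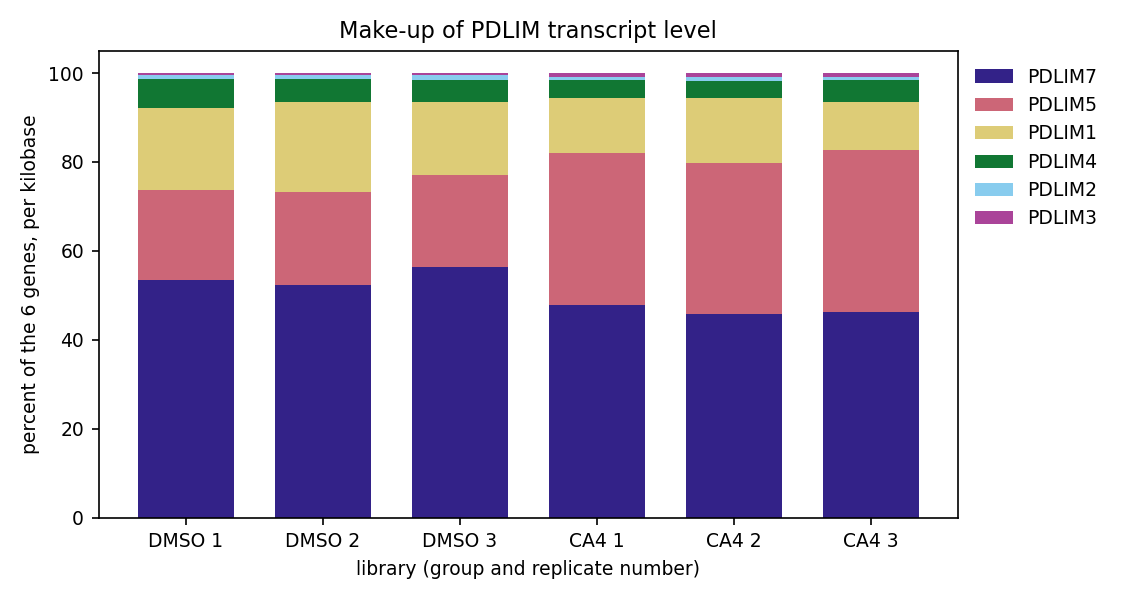
Share of each PDLIM gene (stacked bars, percent) in the summed level per kilobase of exon of the 6 genes, in each library named by group and replicate number. The PDLIM5 segment is 20.3% to 21% in DMSO and 34.1% to 36.4% in CA4, and PDLIM7 is the largest segment throughout.

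Replicates of the 8 genes were about as close as those of other well-read genes. Their median coefficient of variation was 8.35% in DMSO and 7.07% in CA4, against 9.29% and 8.42% over the 6397 genes whose mean was 500 normalized counts or more. The 8 include PDLIM3, whose mean of 378 lies below that cut. Recovered reads per library ran from 203 for PDLIM3 to 25787 for PDLIM5, where counting alone gives an error of 7.02% and 0.623%. Short stretches shared with other genes were few. Of the 50-base words in their annotated transcripts, 7.73% of those of LMO7, 3.39% of those of PDLIM2 and at most 1.24% of those of the other 6 genes also occur in a transcript of another gene.

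The genes with the profile most like that of PDLIM5 were found by the root mean square difference in log2(normalized count + 1) over the 6 libraries, each gene centred on its own mean, among 11688 other genes with a mean of at least 50. They were CDKN1A at 0.0709, MARCHF1 at 0.0844, BDNF at 0.0937, RIMS1 at 0.106 and ANKRD1 at 0.129. CDKN1A encodes the cell cycle inhibitor p21, BDNF a neurotrophin and ANKRD1 an ankyrin repeat protein of muscle and of stretched cells. CDKN1A stood at 4763, 4712 and 4346 normalized counts in DMSO and 9904, 9794 and 10928 in CA4, and MARCHF1, which encodes a ubiquitin ligase, at 181.6, 190.7 and 185.2 and at 328.6, 382.6 and 399. As with PDLIM5, no library of either gene fell in the range of the other group. Of the family itself PDLIM3 came 27th at 0.178, LIMA1 50th at 0.206 and LMO7 417th at 0.331. For LIMA1 the closest were CBR3 at 0.0535, DLGAP4 at 0.063, ENSG00000293353 at 0.0641, YARS1 at 0.0714 and GLIPR1 at 0.0774, and LMO7 came 262nd at 0.18. With 6 libraries in 2 groups, such likeness mostly says that the genes differ by a like amount between the groups.

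Around the family, 4 lists of related genes were read from the same fit. These lists hold none of the 8 genes, and they were written with earlier results of these data known. In counts over a list, a gene rose or fell only where it was past the threshold. In the list of alpha-actinins and other actin cross-linkers, the proteins that PDLIM and LIMA1 proteins bind or work beside, 7 of 24 tested genes rose and 0 fell. Whether or not past the threshold, 20 of the 24 had a positive log2 change, and the lowest was -0.56. Beside the 29.2% of the list that rose stand 2.97% of all tested genes, and its median log2 change was 0.26. ACTN1, the alpha-actinin of stress fibres, rose from 43157, 35241 and 41549 normalized counts in DMSO to 61481, 60007 and 62387 in CA4, a log2 change of 0.62 (SE 0.10, limma adjusted p = 0.0179). ACTN4, its close relative, rose by 0.48 (SE 0.08, limma adjusted p = 0.0201), a call that ended under quantile normalization, at 0.37. CALD1, whose product caldesmon binds tropomyosin and actin, rose by 0.76 (limma adjusted p = 0.0124).

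Among other genes for LIM proteins of actin and adhesions, 5 of 36 tested rose and 1 fell, with a median log2 change of 0.13. These are 13.9% and 2.78% of the list, beside 2.97% and 1.97% of all tested genes. LIMCH1, a relative of LMO7, went from 2148, 2642 and 3193 normalized counts to 4072, 4300 and 5778, a log2 change of 0.83 (SE 0.18, limma adjusted p = 0.0447). It was no longer past the threshold in any of the 6 fits that leave a library out, in edgeR's quasi-likelihood test, without the variance trend, under quantile normalization or with 75th percentiles made equal. LDB3, the muscle member of the Enigma subfamily, went from 209.6, 299.2 and 366.5 to 387.6, 565.5 and 546.1. All 3 of its CA4 libraries were above those of DMSO, but with 0.79 (SE 0.24) on the log2 scale LDB3 was not past the threshold (limma adjusted p = 0.0981). It was past it with DESeq2, at 0.77, and in limma with the replicate number added to the fit. CSRP1 and ZYX, which encodes the adhesion protein zyxin, rose by 0.73 and 0.72 (limma adjusted p = 0.0158 and 0.0117). PRICKLE2, of planar cell polarity, fell by 1.07 (limma adjusted p = 0.0109).

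The list of partners outside the stress fibre held 11 tested genes, of which 2 rose and 1 fell, with a median log2 change of 0.05. Beside the all-gene shares of 2.97% higher and 1.97% lower, these are 18.2% and 9.09% of so short a list. ID2, the transcription inhibitor that PDLIM5 binds, fell from 149.7, 327.2 and 372.2 normalized counts to 42.53, 65.08 and 80.25, a log2 change of -2.10 (SE 0.38, limma adjusted p = 0.0275). The ID2 libraries of CA4 all lay below those of DMSO, though DMSO replicate 1 was less than 2 times the highest of them. SRC, the kinase that PDLIM4 binds, and PRKCA, a protein kinase C gene, rose by 0.53 and 0.43 (limma adjusted p = 0.0229 and 0.0334). The call of PRKCA ended under quantile normalization and when library totals were made equal, at 0.34 and 0.33.

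SRF is the factor that, with its cofactors MRTFA and MRTFB, reads the state of actin and turns on genes of the actin cytoskeleton. In its list, which adds known targets, 7 of 22 tested genes rose and 0 fell, with a median log2 change of 0.45. Whether or not past the threshold, 17 of the 22 had a positive log2 change. The 31.8% that rose stand beside 2.97% of all tested genes. SRF itself rose from 3116, 2829 and 3261 normalized counts to 4320, 4212 and 4712, a log2 change of 0.53 (SE 0.09, limma adjusted p = 0.0207). MRTFA and MRTFB, at -0.25 and -0.65, were not past the threshold (limma adjusted p = 0.418 and 0.189). CCN1, ANKRD1 and ACTG2 rose by 1.07, 1.05 and 1.04 (limma adjusted p = 0.0158, 0.00404 and 0.0336), close in size to PDLIM5.

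Calls in these lists depended on which libraries were in the fit. In the fits without a library, the count of genes that rose ran from 0 to 8 for the cross-linkers, from 0 to 7 for the LIM genes and from 1 to 9 for the SRF list, with the highest counts without DMSO replicate 1. Cross-linkers past the threshold numbered 0 and 1 when DMSO replicate 2 or 3 was left out, and 1, 3 and 2 when CA4 replicate 1, 2 or 3 was. In the SRF list the counts without these 5 libraries were 2, 3, 1, 3 and 1, and among the LIM genes 1, 0, 1, 2 and 1 were past it and higher. Of the partners, ID2 included, 0 were past the threshold in either direction in each of those 5 fits. Among the genes of the 4 lists named here, ANKRD1 was past the threshold in all 6 fits, and the others that were called lost the call in at least 1. Without the variance trend ANKRD1 and PRICKLE2 were the genes named from these lists that were still past the threshold.

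**Figure D4:**
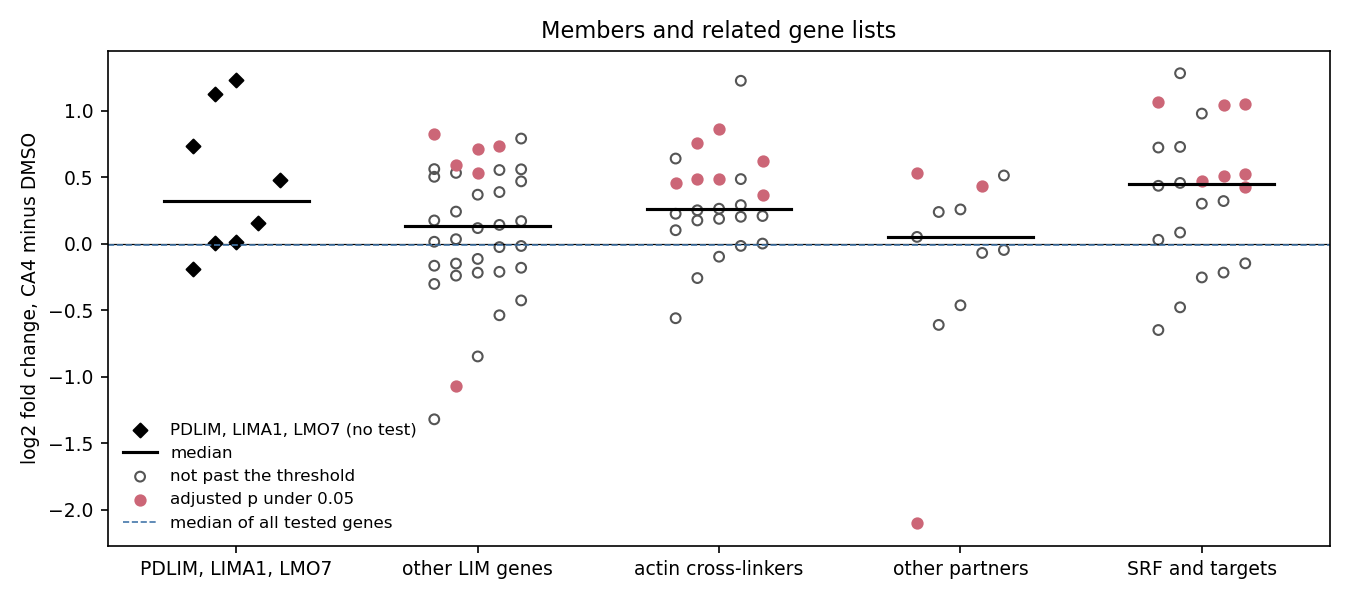
Log2 change, CA4 minus DMSO (vertical axis), of each tested gene of the family (diamonds) and of 4 related lists (circles, filled where the limma adjusted p is under 0.05), with the median of each (bar). The medians are 0.32 for the family, 0.13 for other LIM genes, 0.26 for the cross-linkers, 0.05 for other partners and 0.45 for the SRF list, and the dashed line at -0.0082 is the median of all 13928 tested genes.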

How the data were processed

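RNA of 3 DMSO and 3 CA4 libraries was measured by sequencing after polyA selection. The deposited values are a signal, normalized counts, that is, reads over a library factor set by the authors. Per the submitters' processing notes the build was GRCh38, and Trim Galore 0.6.6, FastQC 0.12.1, Salmon 1.8.0, STAR 2.7.9a and DESeq2 1.44.0 were used, with their roles, the annotation and the use of strand not given in the sources used here. In every column 100% of values were whole multiples of the smallest within a tolerance of 0.01, which gave back whole reads, possibly rounded estimates. With Salmon named, reads may have been shared out between genes.

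Genes with a mean of at least 10 were put on log2(normalized count + 1) and fitted with limma 3.58.1 (R 4.3.3; treatment as the only term, empirical Bayes with a mean trend, two-sided, Benjamini-Hochberg adjustment over 13928 genes, threshold 0.05). Over these genes 3197 had an unadjusted p under 0.05. Alternatives were pseudocounts of 0.1 and 5, no filter or a mean of at least 50, 3 other scalings, no variance trend, a robust prior, the replicate number as a block, each library left out, and edgeR 4.0.16 and DESeq2 1.42.0 on recovered reads. Scripts were tested on simulated data. Symbols came from the supplied table for 35803 IDs and from GENCODE 29 for 29, and 3068 had none. Exon lengths and positions are from GENCODE 29 and promoter windows from RefSeq.

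Members and lists were chosen with earlier results of these data known. Genes named are all 8 members, per list the 3 highest and 3 lowest past the threshold (mean 50 or more), 8 fixed list genes, and the 5 most like PDLIM5 and the 5 most like LIMA1. Some items that the rule or the marker lists hold are not reported here.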

Additional observations from a re-analysis of the deposited data

How the results depend on the processing

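Of the 8 genes, PDLIM3, PDLIM5, LIMA1 and LMO7 kept a positive and PDLIM1 a negative log2 fold change in all 18 alternatives run, and PDLIM7 stayed positive, while PDLIM2 and PDLIM4 changed sign. Quantile normalization gave 0.96 for PDLIM5, 0.0645 for PDLIM7 and 0.64 for LIMA1, and scaling to the same total gave 1.02, 0.0545 and 0.63. These shifts exceed the spread between replicates. Without the variance trend 2 of the 8 genes, PDLIM3 and PDLIM5, lay past the threshold instead of 4, 3 did under quantile normalization, which ended the call of LMO7 (0.39), and 3 or 4 did without a library.

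Against 413 genes higher and 275 lower in the table as a whole, there were 907 and 706 with DESeq2, 51 and 52 without the variance trend, and 523 lower (279 higher) with scaling to the same total. Without a library there were 50 to 605 higher and 31 to 389 lower. Of 688 genes in both directions, the count fell to 100 without DMSO replicate 2, 81 without DMSO replicate 3, 156 without CA4 replicate 1 and 150 without CA4 replicate 3. With edgeR it was 643, of which 630 were shared. The lengths of the longest basic coding transcripts were added after seeing the data.

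In the list of other LIM genes (5 higher, 1 lower), 3 were higher under quantile normalization, 2 lower with scaling to the same total, 14 higher and 3 lower with DESeq2, 0 higher without the trend, and 0 to 7 higher and 0 to 2 lower without a library. Among the cross-linkers (7 higher) there were 4 under quantile normalization, 0 without the trend and 0 to 8 without a library. For the other partners (2 higher, 1 lower), 1 was higher under quantile normalization and 1 with scaling to the same total, 0 and 0 without the trend, and 0 to 2 higher and 0 to 1 lower without a library. In the SRF list (7 higher), 4 were higher without a filter, 4 under quantile normalization, 4 with scaling to the same total, 11 with DESeq2, 1 without the trend and 1 to 9 without a library. The cause was not tested.

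With the replicate block there were 1260 higher and 1137 lower genes, 14 and 3 of the other LIM genes, 13 and 1 of the cross-linkers, 2 lower partners and 14 higher in the SRF list, and the same 4 of the 8 genes. LDB3 was past the threshold with the block and with DESeq2, and in none of the other alternatives. Deviations of same-numbered libraries correlated at 0.202, 0.159 and 0.0589 across genes, and 5 of 6 libraries correlated best with their own number. The main fit has no term for the number, because the labels give a shared number only. Whether same-numbered libraries are pairs was not tested, and if they are, the main fit ignores the pairing. PDLIM3, at 203 to 533 reads, is the gene whose values depth limits most.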
